A study of Mus musculus with 6 samples.

Results

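The insulin-like growth factor (IGF) axis was examined through 10 genes named by symbol, all 10 of which were found among the 24054 genes of the count table. They comprise the ligands Igf1 and Igf2, the receptors Igf1r and Igf2r, and the binding protein genes Igfbp2 to Igfbp7. RNA-seq libraries were made from the gastrocnemius (GAS) muscle of male C57BL/6 mice, 3 with loss of IRF4 in muscle (MI4KO) and 3 with IRF4 overexpression in muscle (MI4OE). MI4KO mice carried Irf4 flox/flox and Myl1-Cre, and MI4OE mice carried Rosa26-LSL-IRF4 and Myl1-Cre, so that Cre was present in both groups. Myl1-Cre acts in skeletal muscle fibres, and the other cells of the muscle keep their own Irf4 alleles. GAS muscle of flox or wild-type mice was not analysed here, so each difference below sets a knockout against an overexpressor and cannot be assigned to either alone. The labels give a high fat diet for all 6 libraries while the study describes chow feeding, and the age of these mice was not given in the sources used here. Each library has its own number in the labels, and the study counts 3 muscles per genotype, which the labels do not tie to animals in so many words. If any shared an animal, the p-values would measure technical spread in part.

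IGF1 and IGF2 are secreted peptides that act through the IGF1 receptor, a tyrosine kinase whose signal runs through IRS proteins, PI3 kinase and AKT, and promotes growth of muscle fibres. Much of the IGF1 in blood is made by the liver under growth hormone, and muscle also makes its own. The IGF2 receptor takes up IGF2 and carries it to the lysosome, and the binding proteins hold the ligands in blood and in the matrix around cells, which either limits or prolongs their action. IGFBP7 is a related protein with weak affinity for IGFs.

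The libraries held 18828605 to 29239585 expected counts. Irf4 had 6, 0 and 2 counts across MI4KO replicates 1, 2 and 3 and 2864, 10557 and 5911 counts across MI4OE replicates 1, 2 and 3, as the genotype labels state. Myofibre genes dominated every library, with a summed level of 10 markers between 199646 and 346674 CPM (counts scaled by library size with TMM factors). MI4OE replicate 1 stood apart, since the summed level of 7 slow-fibre markers was 6261 CPM there, against 23.5 to 565 CPM elsewhere. MI4KO replicate 3 also stood apart, with 567 CPM over 6 adipocyte markers, against 56.2 and 134 CPM in the other MI4KO libraries and 6.24 to 34.8 CPM in MI4OE. In bulk muscle, fewer cells of a type and less RNA per cell cannot be told apart.

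In brief, Igf2 was higher and Igf1 was lower in MI4OE muscle, Igfbp5 took a smaller share of the binding protein transcripts and Igfbp7 and Igfbp6 took larger ones, and neither receptor gene met the criterion used below. Of the 10 genes, 9 had enough reads to be tested and Igfbp2 did not. None of the 9 reached an adjusted p under 0.05 in edgeR's quasi-likelihood test, where 0.0237% of all 12660 genes tested did. DESeq2 called 0 of the 9 and 111 of all 12660 genes, the exact test of edgeR called 0 and 112, and limma called 0 and 4. At an unadjusted p under 0.05 there were 3 genes, and the same 3, Igf1, Igf2 and Igfbp6, met the criterion stated by the study, a change of 1.5-fold at an unadjusted p under 0.05. That criterion was met by 6.64% of all genes tested. It was met by 2 of 9 IGF axis genes in the direction higher in MI4OE, where 4.36% of all genes stood, and by 1 of 9 in the direction lower in MI4OE, where 2.28% stood. Leaving out MI4OE replicate 1, it was met by 2 axis genes, Igf1 and Igf2, and by 4.56% of all genes. Leaving out MI4KO replicate 3, it was met by 3, Igf2, Igfbp6 and Igfbp7, and by 7.56% of all genes. The share of all genes that met it in the higher direction itself fell to 2.36% without MI4OE replicate 1 and to 2.31% without MI4KO replicate 1, and it was 6.94% without MI4OE replicate 2. The CPM ranges of the groups did not overlap in 2 of 9 genes, Igf2 and Igfbp5, against 12.8% of all genes. By sign alone 6 of the 9 lay higher in MI4OE and 3 lay lower, and the median log2 fold change of the 9 was 0.32, where that of all genes tested was -0.00.

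**Figure D1:**
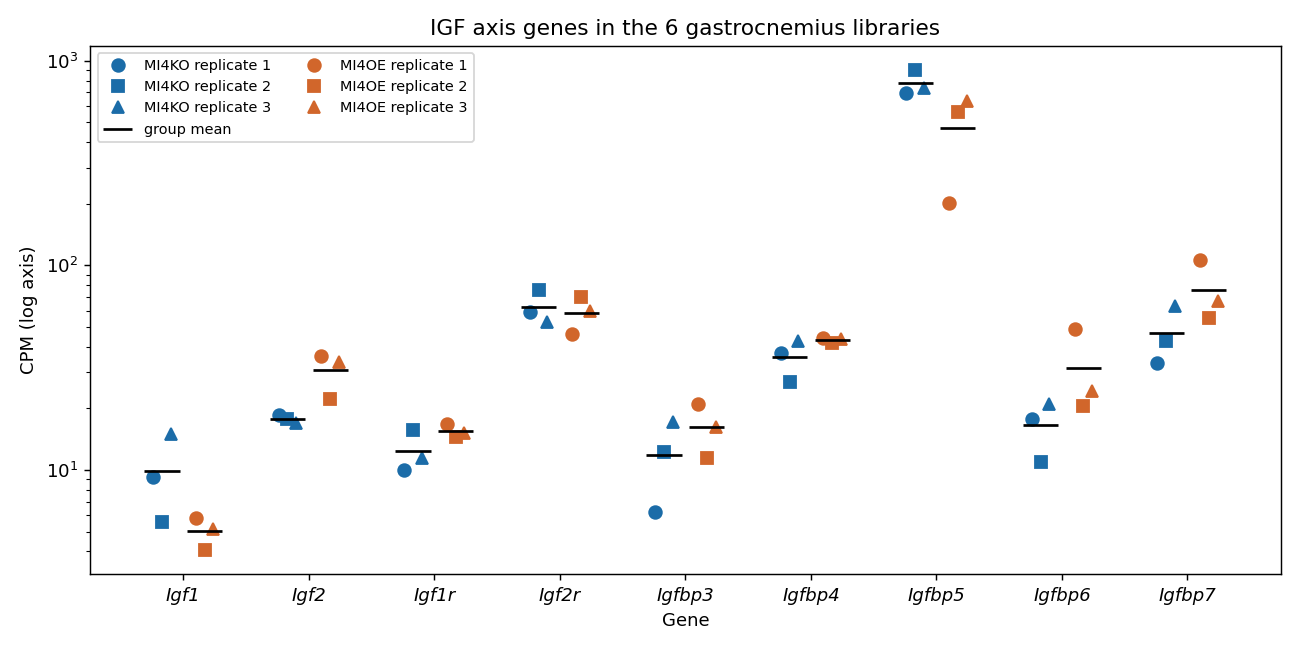
CPM (log axis) of the 9 tested IGF axis genes in each library, with MI4KO in blue, MI4OE in orange, a marker shape for each replicate number and a black line at the group mean (n = 3). The MI4OE libraries lie above the MI4KO libraries for Igf2 and below them for Igfbp5, where MI4OE replicate 1 sits alone at 202 CPM, and the groups overlap for the other genes.

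Igf2, the ligand best known from fetal growth and from regenerating muscle, gave the smallest p of the axis. It was at 18.6, 17.7 and 17 CPM across MI4KO replicates 1, 2 and 3 and 36.1, 22.3 and 33.7 CPM across MI4OE replicates 1, 2 and 3. The MI4KO libraries were tightly grouped, and each MI4OE library lay above all of them. Group levels were 17.8 ± 0.776 CPM in MI4KO (SD, n = 3) and 30.7 ± 7.34 CPM in MI4OE (SD, n = 3), a 1.72-fold difference. The log2 fold change came to 0.79 (SE 0.20), with a 95% interval of 0.31 to 1.26. Its unadjusted p was 0.00521 and its adjusted p was 0.495 in edgeR's quasi-likelihood test. The exact permutation test, two-sided, gave p = 0.1, the smallest that 3 libraries against 3 allow. The unadjusted p stayed under 0.05 in 14 of 14 alternatives, in which the adjusted p ran from 0.0945 with DESeq2 to 0.912 without MI4OE replicate 3. Among the fits with a library left out, the log2 fold change was lowest without MI4OE replicate 1, at 0.65, and highest without MI4OE replicate 2, at 0.97.

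Igf2 is an imprinted gene read from several promoters on the minus strand of chromosome 7, and the deposited transcript table divided it among 3 transcripts. The sequences below are promoter windows of Igf2 from RefSeq (GRCm38.p6, minus strand, 250 bases before to 50 after the start site), shown because the deposited Igf2 transcripts differ in their start sites and 1 of the windows holds a motif of the IRF family. They are written in the direction of transcription, and capitals mark the letters of an interferon-stimulated response element (ISRE) core, the kind of motif that IRF proteins are known to bind.
Igf2 window chr7:142661222-142661521: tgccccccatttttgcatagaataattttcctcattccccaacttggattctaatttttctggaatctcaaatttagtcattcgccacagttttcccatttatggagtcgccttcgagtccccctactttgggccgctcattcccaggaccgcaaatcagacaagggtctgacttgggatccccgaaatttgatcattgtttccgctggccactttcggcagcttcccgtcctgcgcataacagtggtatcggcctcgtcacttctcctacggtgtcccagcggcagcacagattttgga
Igf2 window chr7:142658755-142659054: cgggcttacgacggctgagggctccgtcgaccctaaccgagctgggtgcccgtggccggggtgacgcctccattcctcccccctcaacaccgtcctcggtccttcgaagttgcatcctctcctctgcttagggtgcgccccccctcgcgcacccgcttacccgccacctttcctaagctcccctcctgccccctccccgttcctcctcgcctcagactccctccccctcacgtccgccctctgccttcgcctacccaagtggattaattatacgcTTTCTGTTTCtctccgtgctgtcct
Igf2 window chr7:142657447-142657746: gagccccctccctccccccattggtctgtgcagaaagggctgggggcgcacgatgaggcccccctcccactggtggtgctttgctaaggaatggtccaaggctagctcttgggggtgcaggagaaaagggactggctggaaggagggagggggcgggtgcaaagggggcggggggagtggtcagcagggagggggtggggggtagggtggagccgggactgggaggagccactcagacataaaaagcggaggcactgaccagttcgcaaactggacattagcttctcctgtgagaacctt
The ISRE core was searched as GAAANNGAAA on both strands, and it was present in 1 of the 14 promoter windows of the 10 genes and in 3.44% of all 32851 RefSeq windows of this length. Another Igf2 window, at chr7:142666767-142667066, holds no ISRE core and is not printed. The match is TTTCTGTTTC in the window at 142658755, where it begins 25 bases downstream of the start site and reads as the motif on the opposite strand to the gene. The composite of an ETS and an IRF site, searched as GGAANNGAAA, was in 0 of 14 windows and in 2.72% of all. The shorter IRF half-site AANNGAAA, which each ISRE core contains, was in 2 of 14 windows and in 23.9% of all. These matches describe letters in a window and were not tested for binding.

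The transcripts of Igf2 did not differ in proportion beyond the spread between libraries. NM_001122736, whose annotated start lies in the first window printed, took 33.5%, 31.9% and 29.2% of the gene's counts across MI4KO replicates 1, 2 and 3 and 27.6%, 27.2% and 34.2% across MI4OE replicates 1, 2 and 3. NM_001122737, which starts in the last window printed, took 44%, 20.8% and 48.5% in MI4KO and 54.6%, 32.8% and 32.5% in MI4OE. NM_010514 took 22.5%, 47.3% and 22.3% in MI4KO and 17.8%, 40% and 33.3% in MI4OE. The groups overlapped for each of the 3 transcripts, and two-sided exact permutation tests gave p between 0.6 and 1. NM_010514 is the transcript nearest to the window with the ISRE core, since its GENCODE counterpart starts 685 bases upstream and is 684 bases longer than the deposited transcript. RSEM estimates these shares from 50-base reads, most of which the transcripts have in common.

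Igf1 was lower in MI4OE, but its MI4KO libraries were widely spread. It was at 9.25, 5.54 and 15 CPM across MI4KO replicates 1, 2 and 3 and 5.8, 4.05 and 5.16 CPM across MI4OE replicates 1, 2 and 3. MI4KO replicate 2 fell inside the MI4OE range, and MI4KO replicate 3 was the highest of the 6. Means were 9.94 ± 4.78 CPM in MI4KO (SD, n = 3) and 5.01 ± 0.886 CPM in MI4OE (SD, n = 3), 1.99-fold apart. The log2 fold change came to -0.99 (SE 0.36), with a 95% interval of -1.83 to -0.16, an unadjusted p of 0.0251 and an adjusted p of 0.574 in edgeR's quasi-likelihood test. The exact permutation test, two-sided, gave p = 0.2. Leaving out MI4KO replicate 3 gave -0.58 with an unadjusted edgeR p of 0.0961. The unadjusted edgeR p was 0.069 without MI4OE replicate 2 and 0.0516 without MI4OE replicate 3, and it was under 0.05 in the other 3 fits with a library left out. On the TPM scale limma gave an unadjusted p of 0.112 with a pseudocount of 1.

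MI4KO replicate 3, the library with the most Igf1, also had the highest sums of adipocyte, hepatocyte and macrophage markers. The macrophage markers summed to 52, 43.4 and 81.6 CPM across MI4KO replicates 1, 2 and 3 and 69.2, 28.8 and 58.9 CPM across MI4OE replicates 1, 2 and 3, the same order of libraries within each group as for Igf1. Its 6 hepatocyte markers summed to 46.3 CPM, against 1.53 and 3.68 CPM in the other MI4KO libraries and 0.0883 to 3.2 CPM in MI4OE. Alb, the albumin gene of hepatocytes, was at 29.5 CPM in that library and at 0 to 2.73 CPM in the others. Adipoq, the adiponectin gene of adipocytes, measured 9.58, 17.7 and 81.4 CPM across the MI4KO libraries and 0.885, 5.94 and 1.37 CPM across the MI4OE libraries. All 6 adipocyte markers met the study's criterion in the direction lower in MI4OE, where 2.28% of all genes did, and all 6 also met it without MI4KO replicate 3, where 2.22% did. Of the 6 hepatocyte markers 2 had enough reads to be tested. Of these Alb met the criterion in the direction lower in MI4OE, and 2 did without MI4OE replicate 1, where 2.2% of all genes did. Without MI4KO replicate 3, MI4OE replicate 2 or MI4OE replicate 3, 0 did, where 2.22%, 3.29% and 1.81% of all genes did. The part of adipocytes, hepatocytes and macrophages in the Igf1 difference was not tested.

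Igf1 has splice forms that differ in the tail of its precursor protein. A 52-base coding exon, used in the form known in rodents as IGF1Eb, lies on chromosome 10, at 87915298 to 87915349 on the plus strand of GRCm38 in the GENCODE annotation. It is shown in capitals with 12 bases of the neighbouring exons on each side, because it separates the pair of Igf1 transcripts described next.
Igf1 52-base exon: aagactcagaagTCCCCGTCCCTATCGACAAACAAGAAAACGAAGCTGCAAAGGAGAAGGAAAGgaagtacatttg
NM_010512, which holds this exon, took 8.58%, 24.5% and 28.2% of the Igf1 counts across MI4KO replicates 1, 2 and 3 and 27.2%, 0% and 0% across MI4OE replicates 1, 2 and 3. NM_001111275, which lacks it, took 85.6%, 65.9% and 58.1% in MI4KO and 64.3%, 88.7% and 92% in MI4OE. NM_010512 was listed at 0 in MI4OE replicates 2 and 3, while MI4OE replicate 1 lay among the MI4KO libraries. NM_001111274 also holds the exon and took 0.771% of the Igf1 counts in MI4KO replicate 2 and 0% in the other 5 libraries. Two-sided exact permutation tests gave p = 0.3 for both transcripts. Of the 7072 positions at which a 50-base read can start on NM_010512, 101, or 1.43%, touch the exon, so few reads decide its share in libraries that held 116 to 448 Igf1 counts.

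**Figure D2:**
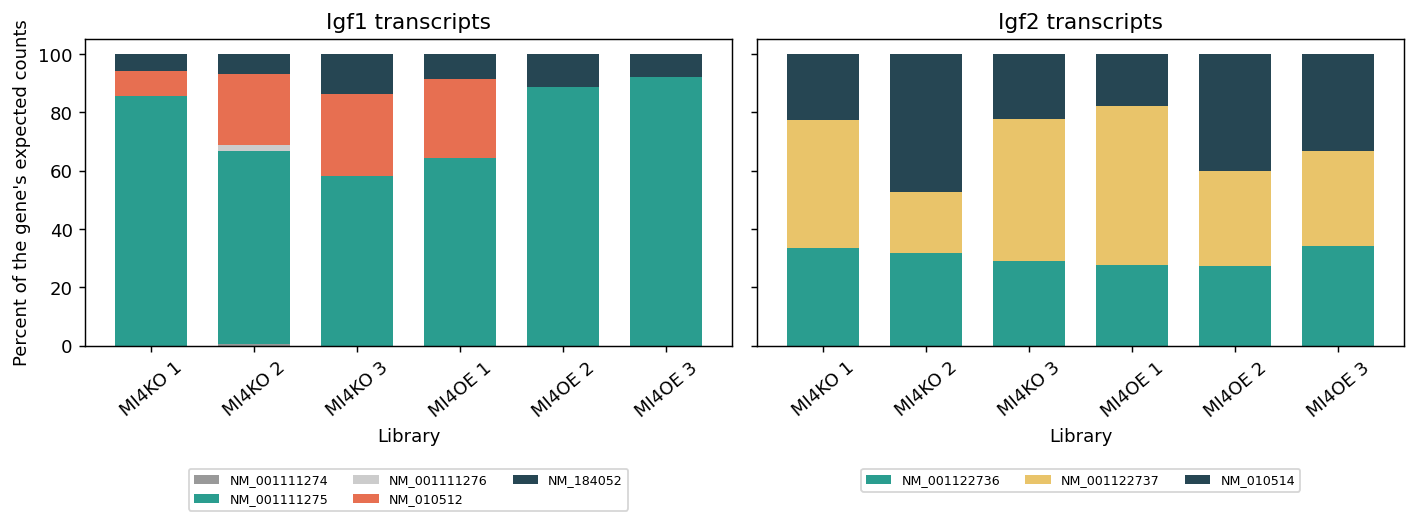
Percent of each gene's expected counts assigned to each transcript in each library, for Igf1 (left) and Igf2 (right), stacked to 100%. NM_010512, in orange, which like NM_001111274 holds the 52-base exon, is at 0% in MI4OE replicates 2 and 3, and the 3 Igf2 transcripts overlap between groups.

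Set beside each other within a library, Igf2 exceeded Igf1 in all 6, and by more in MI4OE. The ratio of Igf2 to Igf1 in TPM (transcript abundance adjusted for length) was 2.81, 4.21 and 1.17 across MI4KO replicates 1, 2 and 3 and 7.82, 6.09 and 8.23 across MI4OE replicates 1, 2 and 3. Every MI4OE ratio exceeded every MI4KO ratio, with means of 2.73 ± 1.52 (SD, n = 3) and 7.38 ± 1.14 (SD, n = 3). On the CPM scale the ratios were 2.01, 3.2 and 1.13 in MI4KO and 6.22, 5.51 and 6.52 in MI4OE. This ratio was chosen after the values of both genes were seen, and no test is given for it. The summed TPM of both ligands was 9, 10.6 and 13.5 in MI4KO and 16.4, 12 and 17.1 in MI4OE, which overlap.

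Neither receptor gene differed beyond the spread between libraries. Igf1r, the signalling receptor, was at 9.99, 15.6 and 11.4 CPM across MI4KO replicates 1, 2 and 3 and 16.7, 14.5 and 15.1 CPM across MI4OE replicates 1, 2 and 3. The MI4OE libraries lay close together and inside or just above the upper end of the MI4KO range. Its log2 fold change was 0.32 with a 95% interval of -0.15 to 0.79 and an adjusted edgeR p of 0.783, and without MI4KO replicate 2 it was 0.52 with an unadjusted edgeR p of 0.0229. Igf2r, the clearance receptor for IGF2, measured 59, 75.8 and 52.7 CPM across the MI4KO libraries and 46.2, 70 and 59.6 CPM across the MI4OE libraries. The groups were interleaved, with a log2 fold change of -0.09, a 95% interval of -0.59 to 0.41 and an adjusted edgeR p of 0.944. Its sign turned to 0.06 without MI4KO replicate 2 and to 0.05 without MI4OE replicate 1.

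The binding protein genes were the most abundant part of the axis. In MI4KO the order by mean TPM began with Igfbp5 at 214, Igfbp7 at 73.2, Igfbp4 at 28.1 and Igfbp6 at 21.6. Igf2r at 11.2, Igfbp3 at 8.15 and Igf2 at 7.5 formed a middle group in which neighbours overlapped in range, and Igf1 at 3.54 overlapped with Igf1r at 1.66. Igfbp2 came last at 0.107 TPM. In MI4OE the means were 135 for Igfbp5, 121 for Igfbp7, 42.2 for Igfbp6, 35.9 for Igfbp4 and 13.4 for Igf2, and Igf1 at 1.8 stood below Igf1r at 2.09. Igfbp5 and Igfbp7 were apart in range in MI4KO and overlapped in MI4OE. The TPM of Igf1 depends on how RSEM divides reads between transcripts of unequal length, because the shortest of them, NM_184052, has 1087 bases.

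Igfbp5, the binding protein gene with the highest mean TPM in both groups, was lower in each MI4OE library than in any MI4KO library. It was at 696, 902 and 735 CPM across MI4KO replicates 1, 2 and 3 and 202, 565 and 637 CPM across MI4OE replicates 1, 2 and 3. MI4OE replicate 1 was far below the rest, and MI4OE replicate 3 was close to the lowest MI4KO library. Levels were 778 ± 109 CPM in MI4KO (SD, n = 3) and 468 ± 233 CPM in MI4OE (SD, n = 3). The log2 fold change came to -0.73 (SE 0.40), with an unadjusted p of 0.107 and an adjusted p of 0.735 in edgeR's quasi-likelihood test, and the exact permutation test, two-sided, gave p = 0.1. Without MI4OE replicate 1 the log2 fold change was -0.37, and without MI4OE replicate 3 it was -1.03. The library with 202 CPM of Igfbp5 was the one rich in slow-fibre RNA, with Myh7, the slow myosin heavy chain, at 1601 CPM and Myl2 at 1328 CPM. Myh7 was also at 162 CPM in MI4OE replicate 3, where Igfbp5 was the highest of its group. The part of fibre type in the Igfbp5 values was not tested.

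Igfbp6, a binding protein with a preference for IGF2, was at 17.8, 10.9 and 21 CPM across MI4KO replicates 1, 2 and 3 and 49.1, 20.6 and 24.4 CPM across MI4OE replicates 1, 2 and 3. MI4OE replicate 1 was the highest, and MI4OE replicate 2 lay just below MI4KO replicate 3. Means were 16.6 ± 5.2 CPM in MI4KO (SD, n = 3) and 31.4 ± 15.5 CPM in MI4OE (SD, n = 3). Its log2 fold change came to 0.92 (SE 0.38), with a 95% interval of 0.04 to 1.80, an unadjusted p of 0.042 and an adjusted p of 0.626 in edgeR's quasi-likelihood test. The exact permutation test, two-sided, gave p = 0.2. Without MI4OE replicate 1 the log2 fold change was 0.44, with an unadjusted edgeR p of 0.156. The unadjusted edgeR p was also above 0.05 without MI4KO replicate 1, at 0.085, and without MI4KO replicate 2, at 0.125.

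Igfbp7, a secreted protein of vessel walls, was at 33.5, 42.8 and 63.4 CPM across MI4KO replicates 1, 2 and 3 and 106, 55.5 and 66.7 CPM across MI4OE replicates 1, 2 and 3. MI4OE replicate 2 lay inside the MI4KO range and the others lay above it. The log2 fold change came to 0.71 (SE 0.32), with an unadjusted p of 0.0568 and an adjusted p of 0.676 in edgeR's quasi-likelihood test, and the exact permutation test, two-sided, gave p = 0.2. Without MI4OE replicate 1 it was 0.39, and without MI4KO replicate 3 it was 0.98. With DESeq2 the unadjusted p was 0.0369, and Igfbp7 then also met the study's criterion.

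The remaining binding protein genes overlapped between groups. Igfbp4, an inhibitor of IGF action that proteases can cleave, was at 37.3, 26.8 and 42.9 CPM across MI4KO replicates 1, 2 and 3 and 44.2, 41.9 and 43.8 CPM across MI4OE replicates 1, 2 and 3, with a log2 fold change of 0.28 at an adjusted edgeR p of 0.81. Igfbp3, the main carrier of IGFs in blood, measured 6.22, 12.2 and 17.1 CPM across the MI4KO libraries and 21.1, 11.4 and 16.3 CPM across the MI4OE libraries, with a log2 fold change of 0.45 at an adjusted edgeR p of 0.843. Its log2 fold change ran from 0.14 without MI4KO replicate 1 to 0.80 without MI4KO replicate 3. Igfbp2 had 0, 1 and 6 counts in MI4KO and 2, 2 and 2 counts in MI4OE, below the floor of 3 counts in 5 of 6 libraries, so no difference was detectable at this depth.

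**Figure D3:**
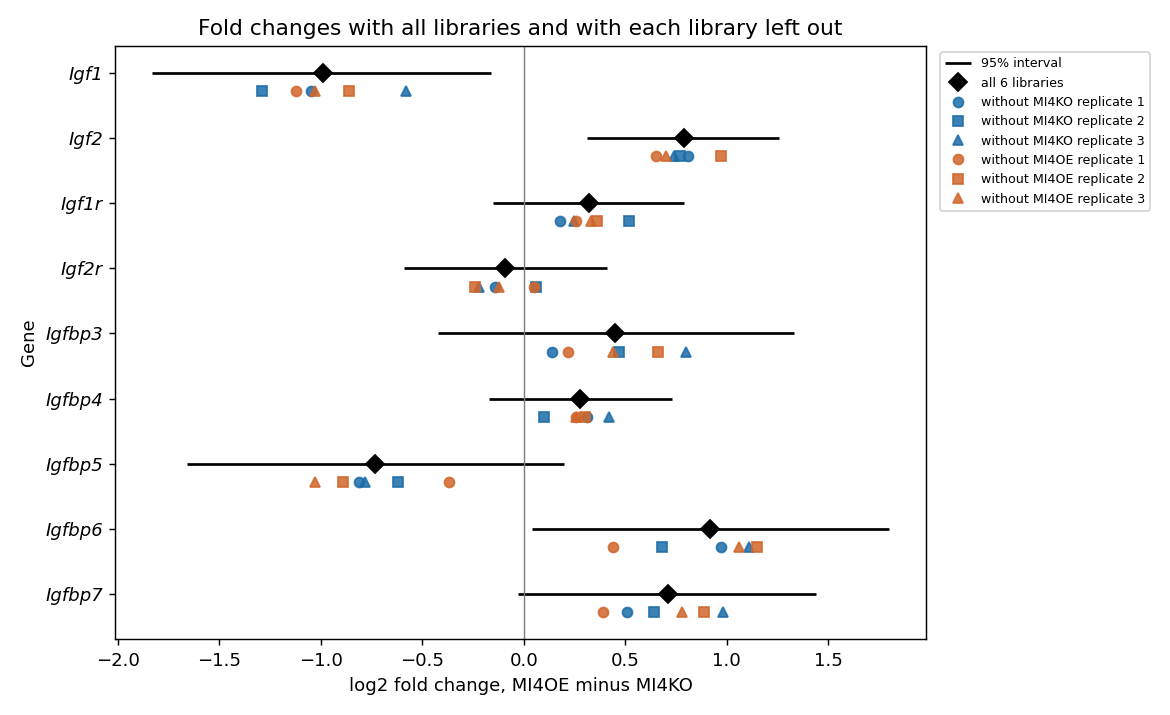
Log2 fold change of MI4OE over MI4KO for the 9 tested genes from edgeR, with the value from all 6 libraries as a black diamond, its 95% interval as a line, and below it the value with each library left out (colour for the group and shape for the replicate left out). The 6 values for Igf2 stay between 0.65 and 0.97, while those for Igfbp6 and Igfbp5 move to 0.44 and -0.37 without MI4OE replicate 1 and the value for Igf2r crosses 0.

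In TPM, which carries no TMM scaling, the groups had like totals of binding protein RNA and differed in its make-up. The CPM of the 10 axis genes together summed to 888, 1109 and 976 across MI4KO replicates 1, 2 and 3 and 528, 806 and 902 across MI4OE replicates 1, 2 and 3. The summed TPM of Igfbp2 to Igfbp7 was 250, 413 and 373 across MI4KO replicates 1, 2 and 3 and 315, 340 and 380 across MI4OE replicates 1, 2 and 3, with means of 345 ± 84.9 (SD, n = 3) and 345 ± 32.8 (SD, n = 3). Igfbp5 made up 63.2%, 68.9% and 53.6% of that total in MI4KO and 16.4%, 49.8% and 48.6% in MI4OE. Igfbp7 made up 17.5%, 18.7% and 26.5% in MI4KO and 49.3%, 28% and 29.2% in MI4OE. Igfbp6 made up 7.92%, 4.06% and 7.53% in MI4KO and 19.5%, 8.89% and 9.15% in MI4OE. The groups were apart for all 3 shares, by narrow gaps once MI4OE replicate 1 is set aside, and they overlapped for Igfbp2, Igfbp3 and Igfbp4. Shares of a total are tied to each other, and these were chosen after the gene values were seen, so no test is given.

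**Figure D4:**
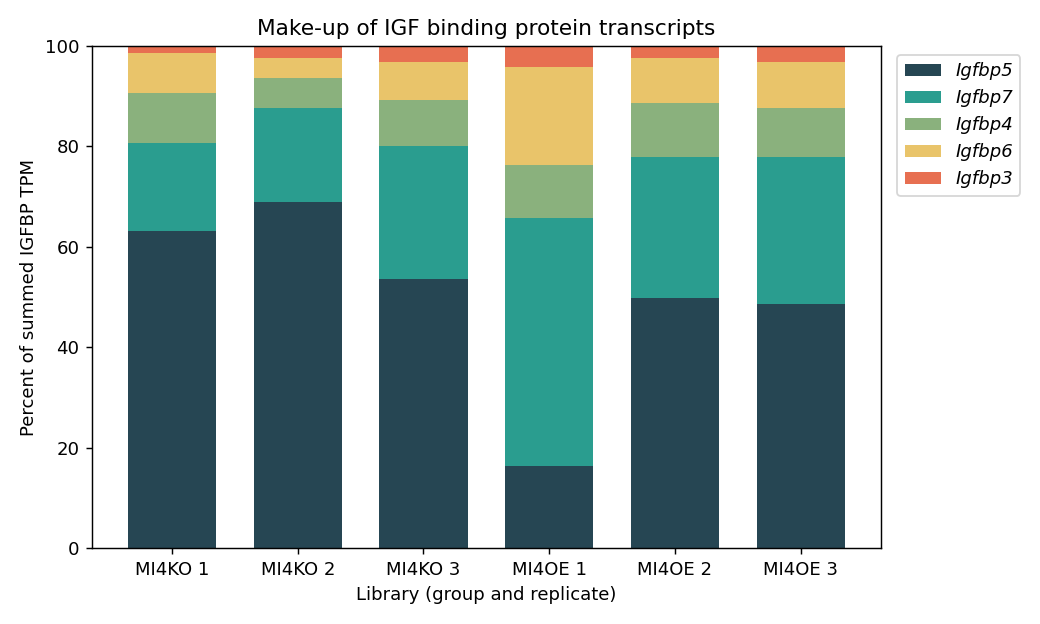
Share of each binding protein gene in the summed IGFBP TPM of each library, in percent, stacked (Igfbp2, at most 0.0698%, is not drawn). Igfbp5 takes 53.6% to 68.9% in the MI4KO libraries and 16.4% to 49.8% in the MI4OE libraries, with Igfbp7 taking much of the difference.

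Markers of vessel and connective tissue cells were also higher in MI4OE, beside Igf2, Igfbp6 and Igfbp7. Of 8 endothelial markers 8 were higher in MI4OE and 6 met the study's criterion in that direction, where 4.36% of all genes did. Their summed level was 124 to 195 CPM in MI4KO and 222 to 408 CPM in MI4OE. Without MI4OE replicate 1 the criterion was met by 3 of the 8 and by 2.36% of all genes in that direction, and without MI4KO replicate 1 by 2 of the 8 and by 2.31% of all genes. The same shares of all genes apply to the mural and fibroblast counts that follow. Of 7 mural cell markers 7 were higher and 6 met the criterion, with sums of 63.1 to 109 CPM in MI4KO and 151 to 203 CPM in MI4OE, and 6 also met it without MI4OE replicate 1. Of 10 fibroblast markers 9 were higher and 6 met the criterion, with sums of 564 to 1154 CPM in MI4KO and 979 to 1299 CPM in MI4OE, and 4 met it without MI4OE replicate 1. Cdh5, the cadherin of endothelial junctions, measured 28.3, 48 and 49 CPM across the MI4KO libraries and 120, 61.5 and 76.5 CPM across the MI4OE libraries. Col1a1, a collagen of fibroblasts, measured 34.3, 29.4 and 42.9 CPM across the MI4KO libraries and 74.8, 47.6 and 59.1 CPM across the MI4OE libraries. MI4OE replicate 1 had the highest endothelial and mural sums and also the highest Igf2, Igfbp6 and Igfbp7. Its fibroblast sum of 1156 CPM was below the 1299 CPM of MI4OE replicate 3 and close to the 1154 CPM of MI4KO replicate 3. No endothelial, mural or fibroblast marker was at 0 in all libraries, and the part of these cells in the IGF axis values was not tested.

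Markers of other cell types were less even. Macrophage markers, 7 of which were tested, had sums of 43.4 to 81.6 CPM in MI4KO and 28.8 to 69.2 CPM in MI4OE. By sign 1 was higher and 6 were lower, and 6 were higher and 1 was lower when MI4KO replicate 3 was left out. The study's criterion was met by 0 of them, where 6.64% of all genes met it. Satellite cell markers summed to 21.1 to 56.1 CPM in MI4KO and 18.9 to 31.4 CPM in MI4OE, and 0 of 5 tested met it, beside that same 6.64%. Of 6 Schwann cell markers 6 were higher in MI4OE and 0 met it, but 6 did without MI4KO replicate 2, where 3.8% of all genes did in that direction. Of 5 tested tendon cell markers 1 met the criterion in the direction higher in MI4OE, where 4.36% of all genes did. Without MI4KO replicate 1 it was met by 2 and without MI4OE replicate 2 by 3, where 2.31% and 6.94% of all genes met it. In the fits without MI4KO replicate 2, MI4KO replicate 3, MI4OE replicate 1 or MI4OE replicate 3 it was met by 0, where 2.36% to 5.34% of all genes met it. Erythrocyte markers summed to 112 to 173 CPM in MI4KO and 162 to 463 CPM in MI4OE, again highest in MI4OE replicate 1. Of the 6, Hba-a2 and Hbb-bs were listed at 0 in every library. All 3 tested were higher in MI4OE, and 1 met the criterion in that direction, where 4.36% of all genes did. With a library left out 1 to 3 of them did, where 2.31% to 6.94% of all genes did.

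The genes whose profile over the 6 libraries was nearest to a member were found by the root mean square difference of centred log2 CPM among 6396 genes with a mean of at least 10 CPM. Nearest to Igf2 were Aqp1, a water channel of capillary endothelium, at 0.11, Sptan1, a spectrin of the membrane skeleton, at 0.14 and Slco3a1, an organic anion transporter, at 0.16, where the median over all compared genes was 0.49. Aqp1 was at 171, 180 and 165 CPM across MI4KO replicates 1, 2 and 3 and 395, 239 and 298 CPM across MI4OE replicates 1, 2 and 3. Nearest to Igfbp6 were the haemoglobin gene Hba-a1 at 0.15, Lims2 at 0.16 and Gpihbp1, which holds lipoprotein lipase on capillary endothelium, at 0.16, against a median of 0.68. Nearest to Igf1 were Fhl3 at 0.25, Sbk2 at 0.27 and Rcan1 at 0.30, against a median of 0.62. Nearest to Igf1r were Slc43a3 at 0.06, Ptprm at 0.07 and Nrap at 0.07, against a median of 0.37. A flat profile would lie at 0.43 from Igf2, 0.63 from Igfbp6, 0.59 from Igf1 and 0.26 from Igf1r. The neighbours were picked by likeness over these same 6 libraries, so a shared order of libraries is part of the selection. These are descriptions over 6 libraries that share their depth and make-up.

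Genes of the growth hormone input, the pathway known to drive Igf1 in liver and other tissues, were lower in MI4OE at 3 of 8 members by the study's criterion, where 2.28% of all genes were. By sign 7 were lower and 1 was higher, and the median log2 fold change of the list was -0.50. The list was chosen with earlier results of these data known, and the study itself names Cish among genes changed in both soleus and gastrocnemius. At an adjusted p under 0.05 the count was 0 of 8 in edgeR's quasi-likelihood test, where 3 of 12660 genes passed. Cish and Socs2 passed under both DESeq2 and the exact test of edgeR, which called 111 and 112 of the 12660 genes. Both genes encode suppressors of cytokine signalling that STAT5 is known to induce after growth hormone.

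Cish was at 46.8, 53.3 and 12.4 CPM across MI4KO replicates 1, 2 and 3 and 1.52, 5.59 and 5.83 CPM across MI4OE replicates 1, 2 and 3. Each MI4KO library was above each MI4OE library, with MI4KO replicate 3 the lowest of its group. The log2 fold change came to -3.11 (SE 0.66), with an unadjusted p of 0.00169 and an adjusted p of 0.433 in edgeR's quasi-likelihood test. DESeq2 gave an adjusted p of 7.9e-05 and edgeR's exact test one of 0.00181, and the range reached 0.912 over the 14 alternatives. Leaving out MI4KO replicate 3 gave -3.54 on the log2 scale, and leaving out MI4OE replicate 1 gave -2.72.

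Socs2, a feedback inhibitor of growth hormone signalling, was at 10.3, 13.2 and 17.7 CPM across MI4KO replicates 1, 2 and 3 and 4.72, 6.6 and 7.2 CPM across MI4OE replicates 1, 2 and 3. The groups did not overlap. Its log2 fold change came to -1.15 (SE 0.26), with an unadjusted p of 0.00229 and an adjusted p of 0.433 in edgeR's quasi-likelihood test, and the adjusted p was 0.0182 with DESeq2. Jak2, the kinase bound to the growth hormone receptor, measured 62.5, 66.7 and 50.4 CPM across the MI4KO libraries and 29.2, 40 and 38.2 CPM across the MI4OE libraries. Those groups did not overlap either, with a log2 fold change of -0.74, an unadjusted p of 0.00471 and an adjusted p of 0.495 in edgeR's quasi-likelihood test. Cish, Socs2 and Jak2 each kept an unadjusted p under 0.05 in 14 of 14 alternatives, the fits without MI4OE replicate 1 and without MI4KO replicate 3 included. Ghr, the receptor itself, had a log2 fold change of -0.41 at an adjusted edgeR p of 0.816, and -0.16 without MI4OE replicate 1.

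**Figure D5:**
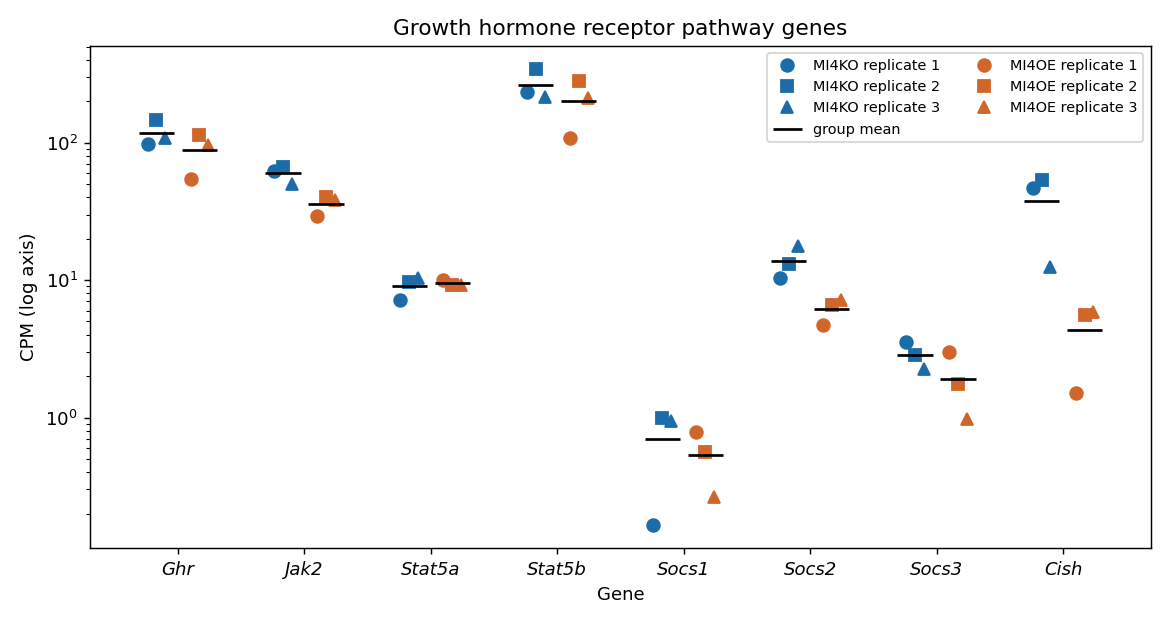
CPM (log axis) of the 8 growth hormone input genes in each library, with MI4KO in blue, MI4OE in orange, a marker shape for each replicate number and a black line at the group mean (n = 3). The groups are apart for Cish, Socs2 and Jak2 and overlap for the other 5 genes.

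Downstream of the receptors, 0 of 20 signalling genes met the study's criterion, where 6.64% of all genes did. By sign 15 lay lower in MI4OE and 5 lay higher, and the median of their log2 fold changes was -0.10. Irs1, the docking protein of the insulin and IGF1 receptors, was at 41.6, 75.3 and 47.8 CPM across MI4KO replicates 1, 2 and 3 and 23.9, 47 and 31.2 CPM across MI4OE replicates 1, 2 and 3, with a log2 fold change of -0.69 at an adjusted edgeR p of 0.683. Without MI4OE replicate 1 it was -0.49, and without MI4KO replicate 2 it was -0.40. Insr, the insulin receptor, had a log2 fold change of -0.12 at an adjusted edgeR p of 0.949, and the kinase gene Akt1 had -0.10 and 0.916. The smallest p values of the list belonged to the kinase gene Mapk3, with 0.43 and an unadjusted edgeR p of 0.0503 (0.26 and 0.152 without MI4OE replicate 1), and to the adaptor gene Grb14, with 1.76 and an unadjusted edgeR p of 0.0571. Grb14 was at 52.5 CPM in MI4OE replicate 1 and at 4.32 to 18 CPM in the other libraries, and its log2 fold change was 0.64 without that library.

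Among the partners and proteases of the binding proteins, 6 of 10 genes had enough reads to be tested, and 0 of 6 met the study's criterion, where 6.64% of all genes did. Igfals, which holds IGF and IGFBP3 in the large complex of blood, was at 4.79, 4.12 and 7.38 CPM across MI4KO replicates 1, 2 and 3 and 1.13, 4.09 and 2.78 CPM across MI4OE replicates 1, 2 and 3. The groups were apart only by the gap between 4.12 and 4.09 CPM, with a log2 fold change of -1.01 at an unadjusted edgeR p of 0.0562, and it was -0.66 without MI4OE replicate 1. Adamts1, a matrix protease, had a log2 fold change of 0.71 at an unadjusted edgeR p of 0.0842. Igfbp1, a binding protein gene of the liver, was at 0 counts in all 6 libraries. Pappa and Pappa2, which encode proteases that cleave binding proteins, were below the limit for testing.

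Igf2bp3, which encodes an RNA-binding protein known to bind Igf2 mRNA, was the gene of its list of 4 that met the study's criterion, of 3 tested. It did so in the direction lower in MI4OE, where 2.28% of all genes did. It had only 56, 53 and 64 counts across MI4KO replicates 1, 2 and 3 and 17, 36 and 31 counts across MI4OE replicates 1, 2 and 3. It was at 2.29, 2.1 and 2.15 CPM across MI4KO replicates 1, 2 and 3 and 0.836, 1.26 and 1.37 CPM across MI4OE replicates 1, 2 and 3. The groups did not overlap, and the direction was opposite to that of Igf2. Its log2 fold change came to -0.91 (SE 0.30), with an unadjusted p of 0.017 and an adjusted p of 0.546 in edgeR's quasi-likelihood test. H19, the imprinted noncoding RNA next to Igf2, measured 197, 207 and 227 CPM across the MI4KO libraries and 952, 246 and 251 CPM across the MI4OE libraries. It was named after its values were seen. The fitted difference was 2.3-fold at an unadjusted edgeR p of 0.0522, and leaving out MI4OE replicate 1, the library with 952 CPM, brought the log2 fold change down to 0.24. H19 and Igf2 were both higher in each MI4OE library than in any MI4KO library.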

How the data were processed

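Single 50-base reads of stranded, mRNA-enriched libraries were aligned by the authors against UCSC transcripts (Bowtie2 2.1.0) and quantified with RSEM 1.2.15, per the study's methods and the submitters' processing notes. The genome build was not given in the sources used here. The expected counts deposited for genes and transcripts come from RSEM without normalization and are not always whole, and RSEM divides a read among the transcripts it matches. The deposited TPM values are RSEM abundances adjusted for length. Counts in the joint table and in the files of single libraries differed by at most 0 counts. The authors' own comparison tables, with signed fold changes, p-values, false discovery rates and TMM-scaled CPM, were not used.

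After rounding, edgeR 4.0.16 (R 4.3.3) was run on the expected counts (filterByExpr with a minimum count of 10 and a minimum total of 15, TMM factors, quasi-likelihood test, Benjamini-Hochberg adjustment over all 12660 genes tested of 24054). CPM was computed with TMM-scaled library sizes and used between libraries, and TPM was used between genes. The floor of 3 counts was 0.101 to 0.147 CPM and covers counting error only. Alternatives were no filter, a mean of at least 1 CPM, RLE factors, total counts, DESeq2 1.42.0, edgeR's exact test, limma 3.58.1 on log2(TPM + 1) and log2(TPM + 0.1), and 6 fits without a library each. The fit was tested on simulated data. Promoter windows came from RefSeq for GRCm38.p6 and matched all 10 genes, and exon positions came from GENCODE for GRCm38, neither of which need be the build of the files.

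All axis genes were named. From the other pathway lists the genes meeting the study's criterion were named, or the 2 with the smallest p where none did, along with Insr, Irs1, Akt1, Ghr and Igfals, and up to 2 genes of each cell type list. H19, Igfbp1, Pappa and Pappa2 were named outside this rule, after their values were seen. The 3 genes nearest in profile, outside the axis and with a mean of at least 10 CPM, were named for Igf1, Igf2, Igf1r and the binding protein with the smallest p, and profiles were log2(CPM + 0.5) centred on each gene's mean. The members and the lists were chosen with earlier results of these data known. The lowest Spearman correlation between libraries of a group was 0.946, and the labels give no batch.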

Additional observations from a re-analysis of the deposited data

How the results depend on the processing

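None of the 9 tested IGF axis genes reached an adjusted p under 0.05 in any of the 14 alternatives, and of their directions that of Igf2r alone turned, with values from -0.24 without MI4OE replicate 2 to 0.06 without MI4KO replicate 2, and 0.05 when MI4OE replicate 1 was left out. The number of axis genes at the study's criterion was 3, and it was 2 to 4 over the alternatives, where 3.7% to 10.2% of all genes met it. Outside the axis, 4 pathway genes met that criterion in edgeR's quasi-likelihood test on all 6 libraries, beside 6.64% of all genes. They came from lists with 6, 3, 20 and 8 genes tested there. The share of all genes moved with the setting too. Dropping the filter gave 8 pathway genes (6.71% of all genes), DESeq2 gave 7 (7.62%) and the exact test gave 8 (7.91%). Limma on log2(TPM + 1) gave 3 (3.7%), and Igf2bp3 no longer met the criterion there. Fits with a library left out gave 5 to 8 (4.56% to 10.2%), with 8 without MI4OE replicate 2 (10.2%). With a library left out, Insr ran from -0.31 to 0.20, turning when MI4KO replicate 2 or MI4OE replicate 1 (0.06) was omitted, and Akt1 ran from -0.18 to 0.02, turning when MI4KO replicate 1 was omitted and, to 0.00, with total counts. The cause was not tested for any of these. Over all genes the adjusted count was 3, against 111 with DESeq2, 112 with the exact test and 1 without MI4KO replicate 1, and the study's criterion was met by 841, against 468 with limma on log2(TPM + 1), 590 without MI4OE replicate 1 and 1314 without MI4OE replicate 2. With total counts the median log2 fold change of all genes was 0.09. Transcript shares differed by -20.4 to 20.5 percentage points between groups over the fits with a library left out. The pathway genes named outside the axis were run under these alternatives after the data were seen, as were the CPM form of the Igf2 to Igf1 ratio and the marker counts without each library. Of 7 slow-fibre markers 6 met the study's criterion in the direction higher in MI4OE, where 4.36% of all genes did. Without MI4OE replicate 1, MI4KO replicate 1 or MI4KO replicate 3, 0 of them did, where 2.36%, 2.31% and 5.34% of all genes did. No paired analysis was possible because the labels number no replicates, and the numbers used here only name libraries in accession order.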
